A study of Mus musculus with 6 samples.

Results

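The cyclin-dependent kinase (Cdk) inhibitors of the Cip/Kip family (Cdkn1a, Cdkn1b and Cdkn1c), 3 of the Ink4 family (Cdkn2b, Cdkn2c and Cdkn2d) and the retinoblastoma family (Rb1, Rbl1 and Rbl2) are 9 of the 37620 genes counted in each sample. They were chosen by symbol, and all 9 had an identifier in the counts and passed the filter on low counts. The samples are ribosome-bound mRNA of dentate gyrus, the hippocampal region that keeps neural stem cells in the adult mouse. All mice, 2 to 3 months old by the study's methods, carried Gli1CreERT2 and Rpl22HA f/+ and received tamoxifen. Of the samples, 3 were Klf9 +/+ and 3 were Klf9 f/f, in which Cre deletes the transcription factor Klf9. Cre also turns on a ribosomal protein with an HA tag (RiboTag), by which ribosomes and their mRNA were isolated. A sample was 1 pool of 3 mice, or 6 dentate gyri, collected 4 days after tamoxifen ended. By the study's account the Gli1 driver recombines in radial glia-like neural stem cells (RGLs) and in astrocytes. The pool, by that account, largely holds mRNA of RGLs, of progeny from their first division and of astrocytes. A bulk sample cannot tell fewer cells of a type from less RNA per cell.

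Cip/Kip proteins bind cyclin-Cdk complexes, those of Cdk2 above all, while Ink4 proteins bind Cdk4 and Cdk6 and keep the D-type cyclins off them. Both brakes act on the retinoblastoma proteins, which hold E2F factors inactive until Cdks phosphorylate them and S phase genes switch on. In adult neural stem cells, p57, the product of Cdkn1c, is known for keeping cells quiescent.

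Reads on genes ranged from 21594714 to 66343759 a sample. By library name, replicates 1 and 2 of both genotypes form a first series (series A) and replicate 3 of both a second (series B), and the shallowest libraries are those of series B. Klf9 itself had a log2 fold change of -0.59 (SE 0.15), Klf9 f/f over Klf9 +/+. By edgeR's quasi-likelihood test the unadjusted p was 0.00319 and the adjusted p 0.844 (Benjamini-Hochberg). Klf9 thus passed the study's threshold of 1.2-fold and an unadjusted p under 0.05, but not an adjusted p under 0.05. All Klf9 f/f samples lay below all Klf9 +/+ samples, at 114.3 to 121.3 against 139.0 to 203.9 CPM. CPM is the count scaled to the size of each library. The log2 difference of Klf9 was -0.78 in series A and -0.21 in series B. By the study's account Cre deletes exon 1 of Klf9, while these counts cover all its exons. Reads of the targeted gene were thus lower but not absent, and the share of cells that lost Klf9 was not measured from these counts. The study itself estimated recombination of Klf9, by in situ hybridization in labelled RGLs and from qRT-PCR of RiboTag mRNA.

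The first question was how much of each paralog these pools of ribosome-bound mRNA held. Markers of other cell types were also present, as given below, so the order is that of the pool and not of a given cell type. To compare genes, CPM was divided by the exon length in kb. Cdkn2c stood highest in Klf9 +/+ at 45.8 ± 7.51 CPM per kb (SD, n = 3), then Cdkn1c at 27.7 ± 14.4, Cdkn1a at 13.9 ± 4.56 and Cdkn1b at 10.8 ± 4.27. Rb1 (7.15 ± 1.67), Rbl2 (6.86 ± 2.75), Cdkn2d (6.76 ± 1.67) and Rbl1 (5.45 ± 0.756) followed at close levels, and Cdkn2b was lowest at 1.25 ± 0.464 CPM per kb. Neighbours in this order overlapped between samples, with the exception of Rbl1 over Cdkn2b, where all 6 samples were higher for Rbl1, by 3.52 to 10.0 times. In Klf9 f/f, Cdkn2c again stood highest at 44.5 ± 9.49 CPM per kb and Cdkn2b lowest at 0.964 ± 0.330, while Cdkn1c, at 15.5 ± 4.76, stood beside Cdkn1a at 14.9 ± 3.92.

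**Figure D1:**
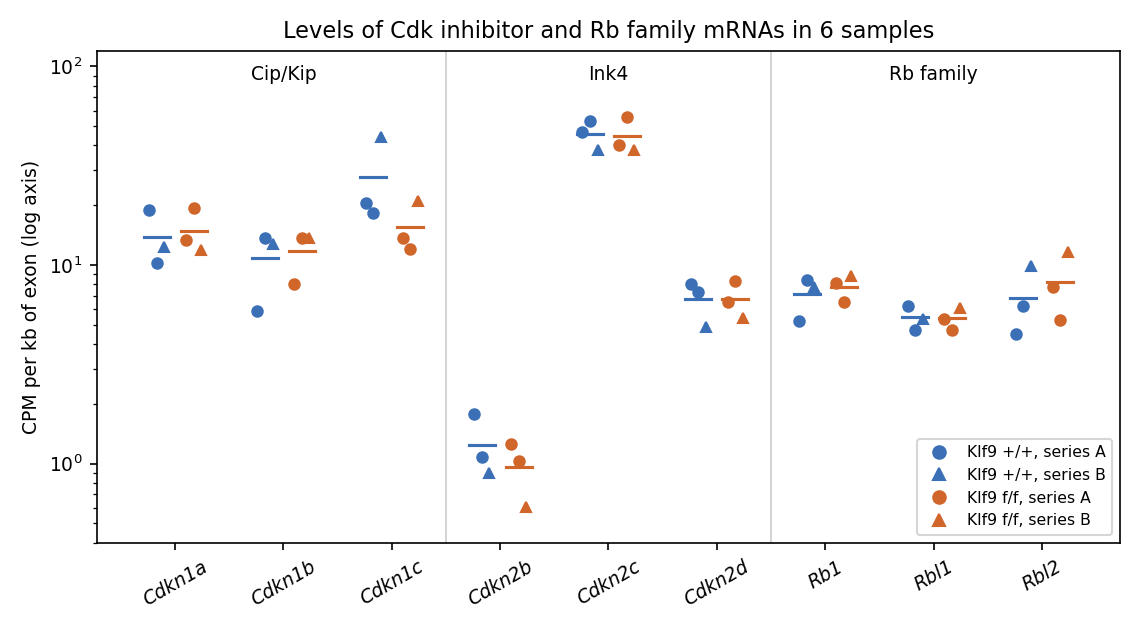
CPM per kb of exon (log axis) of the 9 genes, grouped by family, in Klf9 +/+ (blue) and Klf9 f/f (orange) samples of series A (circles) and series B (triangles), with a line at each group's mean of 3 samples. Cdkn2c is highest with means of 45.8 and 44.5, Cdkn2b is lowest with 1.25 and 0.964, and the Cdkn1c mean is 27.7 in Klf9 +/+ and 15.5 in Klf9 f/f.

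Among the 3 Ink4 genes, Cdkn2c, which encodes p18, made up most of the summed level per kb. The family has a further member that was not among the genes chosen, so the shares are of these 3 genes. The Cdkn2c share was 85.2% ± 2.28 (SD, n = 3) in Klf9 +/+ and 85.2% ± 1.31 in Klf9 f/f, beside 12.5% ± 1.60 and 12.9% ± 0.643 for Cdkn2d, which encodes p19, and 2.31% ± 0.728 and 1.86% ± 0.675 for Cdkn2b, which encodes p15. Cdkn2c and Cdkn2b both lie on chromosome 4. The 250 bases before their annotated starts (RefSeq, GRCm38.p6) are shown because these genes are the highest and the lowest of the 9. For Cdkn2c this is chr4:109666757-109667006, the first of its 2 entries, and for Cdkn2b chr4:89311033-89311282. Both are printed along the minus strand on which the genes lie, and capitals mark the GC box, GGGCGG or CCGCCC, searched on both strands.
Cdkn2c: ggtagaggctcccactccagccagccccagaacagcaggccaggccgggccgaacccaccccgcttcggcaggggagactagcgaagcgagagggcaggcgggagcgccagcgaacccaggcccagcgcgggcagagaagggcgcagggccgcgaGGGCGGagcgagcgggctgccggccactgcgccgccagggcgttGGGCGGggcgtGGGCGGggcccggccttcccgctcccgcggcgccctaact
Cdkn2b: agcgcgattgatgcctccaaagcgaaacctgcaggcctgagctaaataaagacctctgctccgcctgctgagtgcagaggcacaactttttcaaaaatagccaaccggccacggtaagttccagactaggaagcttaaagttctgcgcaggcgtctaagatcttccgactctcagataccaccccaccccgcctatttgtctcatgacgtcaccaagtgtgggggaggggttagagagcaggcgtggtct
The Cdkn2c window holds 3 GC boxes at a GC content of 77.2%, and the Cdkn2b window holds 0 at 53.6%. The second Cdkn2c entry, at a GC content of 42.8%, holds 0. Of the 9 entries matched to 7 of the genes, 5 hold a GC box, against 32.7% of all 32851 entries of this length. The matches describe the letters only.

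Per sample, Cdkn2c stood at 46.7, 52.8 and 37.9 CPM per kb in Klf9 +/+ replicates 1, 2 and 3 and at 40.1, 55.4 and 38.1 in Klf9 f/f. The genotypes overlapped, and the series B samples were the lowest of each group. Its log2 fold change was -0.04 (SE 0.15, 95% interval -0.38 to 0.31). Cdkn2d stood at 8.06, 7.33 and 4.88 against 6.50, 8.32 and 5.43 CPM per kb, again overlapping, with a log2 fold change of 0.01 (SE 0.19, interval -0.43 to 0.45). Cdkn2b rests on few reads, 122, 86 and 38 counts in Klf9 +/+ and 115, 71 and 19 in Klf9 f/f, and the count of 19 has an exact Poisson 95% interval of 11.4 to 29.7 that covers counting error only. It stood at 1.77, 1.07 and 0.89 against 1.26, 1.03 and 0.61 CPM per kb. The groups overlapped, and the log2 fold change of -0.38 (SE 0.34) had a wide interval, from -1.15 to 0.39. It was -0.16 without Klf9 +/+ replicate 1 and -0.60 without Klf9 +/+ replicate 2.

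Among the Cip/Kip genes, Cdkn1c, an imprinted gene that encodes p57, was the member called lower in Klf9 f/f. It stood at 20.6, 18.2 and 44.3 CPM per kb in Klf9 +/+ replicates 1, 2 and 3 and at 13.7, 12.01 and 21.0 in Klf9 f/f. In counts these are 1972, 2024 and 2617 reads against 1730, 1153 and 909. Within each series every Klf9 f/f sample was below every Klf9 +/+ sample, but over all 6 samples the groups overlapped, because Klf9 f/f replicate 3 of series B lay above both Klf9 +/+ samples of series A. In CPM the group means were 53.5 ± 27.8 in Klf9 +/+ and 30.02 ± 9.20 in Klf9 f/f (SD, n = 3).

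The log2 fold change of Cdkn1c was -0.76 (SE 0.15, 95% interval -1.10 to -0.41), a level 1.69 times higher in Klf9 +/+. The difference was -0.60 in series A and -1.08 in series B. By edgeR's quasi-likelihood test Cdkn1c passed the study's threshold of 1.2-fold and an unadjusted p under 0.05 (unadjusted p = 0.000718, adjusted p = 0.474 over all genes). The likelihood-ratio test of edgeR and DESeq2 gave adjusted p-values of 0.00924 and 0.00813. Without the series term the unadjusted p was 0.0548, and the exact two-sided permutation test over the 6 samples, blind to series, gave p = 0.3 where 0.1 is the smallest possible. Cdkn1c was among the genes known to be called when the list was drawn up, so its call is no independent evidence.

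**Figure D2:**
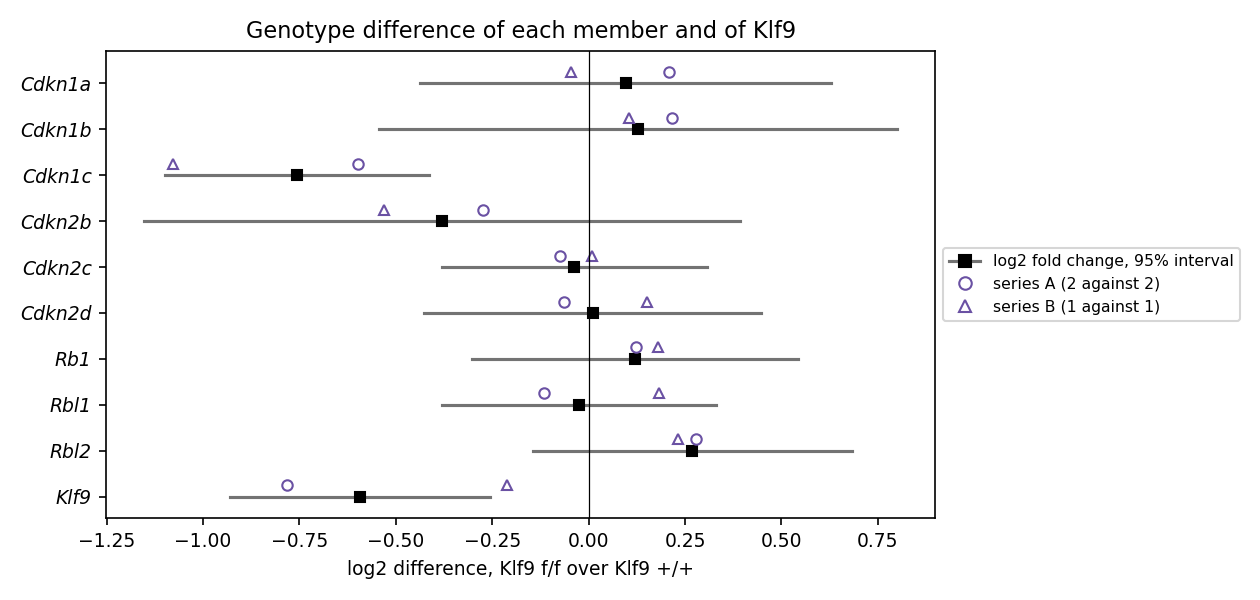
Log2 difference of Klf9 f/f over Klf9 +/+ for the 9 genes and Klf9 (squares, with bars for the 95% interval of the fit over 6 samples), beside the difference in series A (circles, 2 samples against 2) and series B (triangles, 1 against 1). The interval leaves out 0 for Cdkn1c (-1.10 to -0.41) and Klf9, and spans 0 for the other 8 genes.

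Cdkn1a, which encodes p21 and is a classic target of p53, stood at 19.0, 10.2 and 12.3 CPM per kb in Klf9 +/+ and at 13.4, 19.3 and 11.96 in Klf9 f/f. The highest sample of each genotype was in series A, and the groups overlapped. Its log2 fold change was 0.10 (SE 0.24, 95% interval -0.44 to 0.63), smaller than the log2 gap of 0.89 between the Klf9 +/+ replicates of series A.

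Cdkn1b, which encodes p27, which builds up in cells leaving the cycle, stood at 5.89, 13.7 and 12.8 CPM per kb in Klf9 +/+ and at 7.98, 13.7 and 13.7 in Klf9 f/f. Replicate 1 was the low sample of both groups, and the other 4 samples lay close together. The log2 gap between replicates of series A was 1.22 in Klf9 +/+ and 0.77 in Klf9 f/f, while the log2 fold change between genotypes was 0.13 (SE 0.30, interval -0.54 to 0.80). The summed level of 8 markers of neuronal progenitors and neuroblasts was also lower in replicate 1 than in replicate 2 of series A, at 1130 against 2722 CPM in Klf9 +/+ and 608 against 1660 CPM in Klf9 f/f. In series B, however, those markers summed to 977 and 1000 CPM while Cdkn1b was high. All 8 markers had a negative log2 fold change, where 50.2% of all genes had a positive one. Of the 8, 1 was called lower, where 2.5% of all genes were. The part of these markers in the Cdkn1b values was not tested.

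As a share of the Cip/Kip level per kb, Cdkn1c made up 45.4%, 43.2% and 63.8% in Klf9 +/+ replicates 1, 2 and 3 and 39.0%, 26.7% and 44.9% in Klf9 f/f. Klf9 f/f was lower within each series, by 11.4 percentage points in A and 18.9 in B, and the means were 50.8% ± 11.3 and 36.9% ± 9.31 (SD, n = 3; exact two-sided permutation test, p = 0.2, where 0.1 is the smallest possible). Cdkn1a held 27.9% ± 12.4 in Klf9 +/+ and 35.6% ± 8.96 in Klf9 f/f, and Cdkn1b 21.3% ± 10.1 and 27.5% ± 4.13, with overlapping samples. The mean difference in the Cdkn1c share of -13.9 points was -7.41 without Klf9 +/+ replicate 3 and -8.82 without Klf9 f/f replicate 2.

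**Figure D3:**
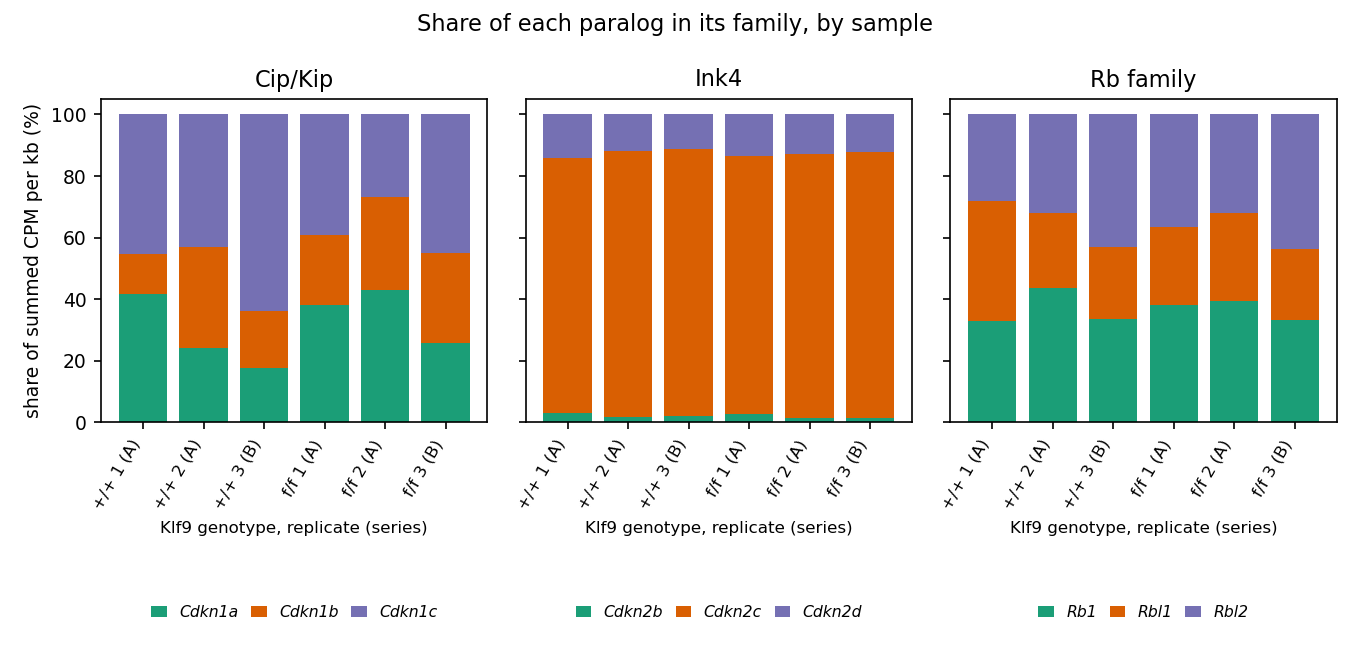
Share (%) of each paralog in the summed CPM per kb of its family, as stacked bars, with the 3 Ink4 genes studied as 1 family and 1 bar for each of the 6 samples, named by Klf9 genotype, replicate and series. The mean share of Cdkn1c in the Cip/Kip level is 50.8% in Klf9 +/+ and 36.9% in Klf9 f/f, while Cdkn2c holds 85.2% of the level of the 3 Ink4 genes in both genotypes.

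The retinoblastoma family was the most evenly divided of the 3 families. Rb1, the founding tumour suppressor, held 36.7% ± 5.95 of the family's level per kb in Klf9 +/+ and 36.9% ± 3.29 in Klf9 f/f (SD, n = 3). Rbl1, which encodes p107, held 28.9% ± 8.73 and 25.6% ± 2.81, and Rbl2, which encodes p130, the member bound to E2F in resting cells, 34.4% ± 7.66 and 37.5% ± 5.94. The counting ignored strand, and 8.11% and 6.78% of the Rb1 exon bases overlap exons of the antisense genes Rcbtb2 and Lpar6. For Rbl2, 9.95% of the exon bases overlap Aktip. Reads that could not be told apart were set aside as ambiguous, at 1.79% to 3.10% of gene and ambiguous reads a sample. The levels per kb of Rb1 and Rbl2, divided by the full exon length, may therefore be understated.

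Rb1 stood at 5.25, 8.43 and 7.76 CPM per kb in Klf9 +/+ and at 8.09, 6.48 and 8.79 in Klf9 f/f, with a log2 fold change of 0.12 (SE 0.19, 95% interval -0.30 to 0.54). Rbl1 stood at 6.23, 4.73 and 5.38 against 5.34, 4.70 and 6.10, with -0.02 (SE 0.16, interval -0.38 to 0.33). For both genes the genotypes overlapped. Rbl2 stood at 4.50, 6.18 and 9.88 in Klf9 +/+ and at 7.79, 5.26 and 11.6 in Klf9 f/f, with 0.27 (SE 0.18, interval -0.14 to 0.68). The groups overlapped for Rbl2 as well, and replicate 3, of series B, was the highest sample in both genotypes. The Rbl2 difference was 0.14 without Klf9 +/+ replicate 1 and 0.086 without Klf9 f/f replicate 1, and 0.41 without Klf9 f/f replicate 2.

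Over the 9 genes, 1 passed the study's threshold lower in Klf9 f/f, where 2.5% of the 15056 genes tested did, and 0 passed it higher, where 1.82% did. With edgeR's quasi-likelihood test, 0 of 9 had an adjusted p under 0.05, where 0.0% of all genes did, while 1 of 9 had an unadjusted p under 0.05 (4.32% of all genes). Cdkn1c had an adjusted p under 0.05 by the likelihood-ratio test and by DESeq2. The samples of Klf9 f/f lay below those of Klf9 +/+ within each series for 1 of 9 (5.53% of all genes) and above for 0 of 9 (7.78%). Over all 6 samples, Klf9 f/f lay wholly below for 0 of 9 (1.35% of all genes) and wholly above for 0 of 9 (2.03%). The median log2 fold change was 0.01, against 0.00 over all genes, and 5 of 9 were positive (50.2% of all genes). For the 8 genes other than Cdkn1c, the intervals leave room for changes in either direction, narrowest for Cdkn2c and Rbl1 and widest for Cdkn2b and Cdkn1b. With the choroid plexus level added to the fit, 0 of the 9 genes were called lower and Cdkn1b and Rb1 were called higher. Of all genes, 3.97% were called lower and 2.37% higher in that fit. By edgeR's quasi-likelihood test Cdkn1b was at 1.62 (SE 0.52, unadjusted p = 0.0136, adjusted p = 0.764). Rb1 was at 0.92 (SE 0.34, unadjusted p = 0.0269, adjusted p = 0.776). The fit left 2 residual degrees of freedom. The choroid plexus level itself differed with genotype, by a log2 difference of -2.02 in series A and -2.74 in series B.

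The series differed for some of these genes whatever the genotype, in a test chosen after the values were seen. Cdkn1c was higher in series B by 0.96 on the log2 scale (SE 0.16, adjusted p = 0.00504 by edgeR's quasi-likelihood test) and Rbl2 by 0.86 (SE 0.19, adjusted p = 0.0113). That is 2 of 9 higher, where 12.9% of all genes were, and 0 of 9 lower, where 16.6% were. A difference of the genotype effect between the series was tested as an interaction, whose p ran from 0.196, for Cdkn1c at -0.48 (SE 0.35), to 0.958, with adjusted p-values of 1.00 by edgeR's quasi-likelihood test. An unadjusted interaction p under 0.05 was found for 0 of 9 (1.53% of all genes), and by adjusted p for 0 of 9 (0.0%). Opposite directions in the series, without overlap in either, were found for 0 of 9 (9.94% of all genes).

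Markers of some other cells moved with genotype beside Cdkn1c. For comparison, 2.5% of all genes were called lower, 1.82% were called higher and 50.2% had a positive log2 fold change. The 12 markers of choroid plexus, the secretory epithelium of the ventricles, summed to 149.9, 736 and 2759 CPM in Klf9 +/+ and to 35.4, 28.5 and 423 CPM in Klf9 f/f, and all 12 were called lower. The 10 meningeal markers summed to 895, 1077 and 1896 against 1168, 553 and 1051 CPM, with 10 of 10 lower and 2 called. The 10 endothelial markers summed to 361, 145 and 235 against 230, 54.3 and 83.3 CPM, with 10 of 10 lower and 3 called, and the 9 mural markers ranged from 583 to 1093 against 439 to 759 CPM, with 9 of 9 lower and 5 called. Of the 7 ependymal markers tested, 7 were lower and 3 called. Their sums overlapped, at 41.8, 24.4 and 69.1 against 32.7, 28.9 and 39.9 CPM. Ccdc153, Tmem212 and Ak7 of this list were over 1 CPM in Klf9 +/+ samples only. These genes passed the filter through that group alone, so the filter favoured a call in this direction. Other lists were mixed in direction. The 10 granule neuron markers had 6 higher, 4 lower and 0 called, with a median log2 fold change of 0.05. The 8 microglial markers had 6 higher, 2 lower and 0 called, with a median of 0.02. The 10 oligodendrocyte lineage markers had 4 higher and 6 lower, with 1 called higher and a median of -0.09. Markers of the cells the driver is known to reach went the other way or overlapped. The 10 astrocyte markers summed to 11719 to 14619 CPM in Klf9 +/+ and 14665 to 17696 CPM in Klf9 f/f, with 10 of 10 higher and 5 called, and of 9 radial glia markers 7 were higher and 0 called. No marker in these lists was at 0 in all samples.

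Klf9 +/+ replicate 3, the sample with the most choroid plexus and meningeal signal, also had the highest Cdkn1c. Within series A, the choroid plexus sums separated the genotypes in the same direction as Cdkn1c. The endothelial and mural sums of Klf9 f/f replicate 1 lay between those of the Klf9 +/+ samples, and its meningeal sum lay above both, while its Cdkn1c level was 26.4 CPM against 39.9 and 35.2. From these values, a difference in such cells and a difference in Cdkn1c per cell cannot be told apart. Series A alone, without Klf9 +/+ replicate 3, gave a log2 fold change of -0.60 (SE 0.21, unadjusted p = 0.0142). With the choroid plexus level as a covariate the log2 fold change was -0.80 (SE 0.35) and no longer passed (unadjusted p = 0.0505), and with the endothelial, mural and meningeal level it was -0.56 (SE 0.19, unadjusted p = 0.0145).

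**Figure D4:**
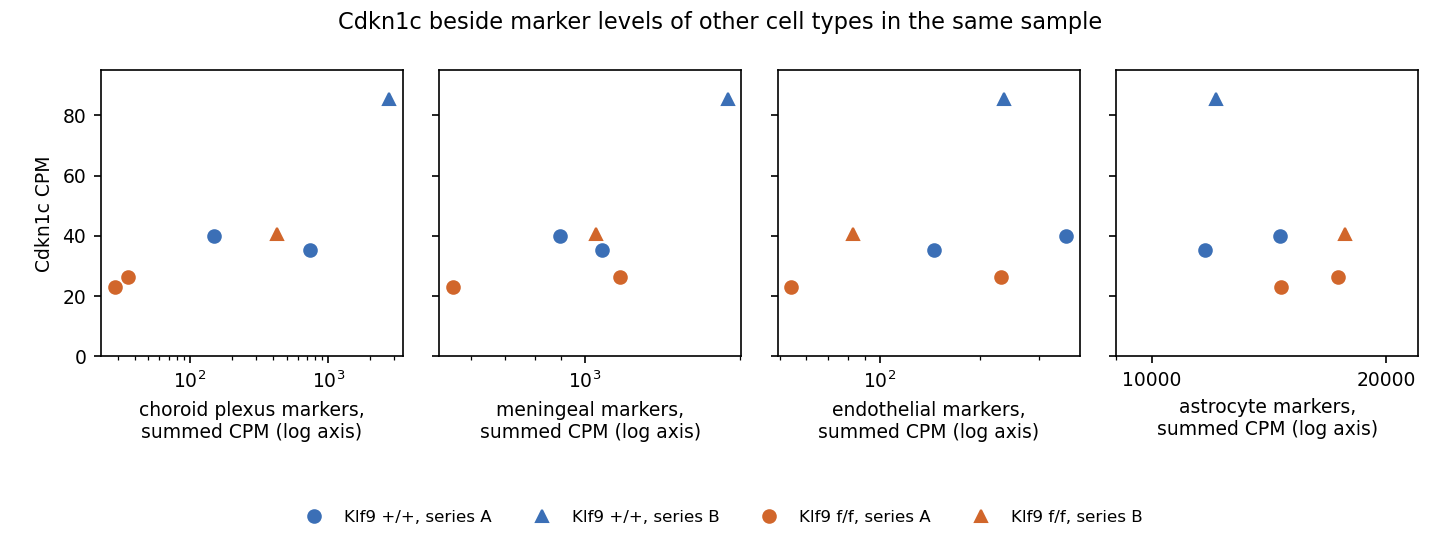
Cdkn1c level (CPM) against the summed CPM (log axis) of choroid plexus, meningeal, endothelial and astrocyte markers, 1 point a sample, in Klf9 +/+ (blue) and Klf9 f/f (orange) of series A (circles) and series B (triangles). Klf9 +/+ replicate 3, at 85.5 CPM of Cdkn1c, has the highest choroid plexus sum (2759 CPM) and meningeal sum (1896 CPM).

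The genes with a profile most like that of Cdkn1c over the 6 samples, by the root-mean-square difference of centred log2 CPM among 11680 genes, were Bmp2 (0.139), which encodes a secreted BMP ligand, Stra6 (0.147), the retinol-binding protein receptor, Mylip (0.169), a ubiquitin ligase, Vasn (0.178), a membrane protein that binds TGF-beta, and Itga3 (0.189), an integrin subunit. The median gene differed by 0.637. All 5 were called lower in Klf9 f/f, with log2 fold changes of -0.77, -0.53, -0.61, -0.44 and -0.53, as genes picked for a profile like that of Cdkn1c would be. Of the other 7 inhibitor and retinoblastoma genes above the 5 CPM mean needed for this comparison, Rbl2 was closest to Cdkn1c, at 0.563 and rank 3551, and Cdkn2b was too low to compare.

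The second question was whether the genes these brakes act on or answer to differed. Of 79 genes tested in 8 lists, 1 was called higher and 1 lower, where 4.32% of all genes were called in either direction, and the median log2 fold change was 0.02. Among 11 cyclins and Cdks that the inhibitors bind, 7 were higher and 4 lower, with a median of 0.05. Ccnd2, the D-type cyclin and the most abundant of them at 330 CPM per kb over all samples, had a log2 fold change of 0.06 (SE 0.17). Ccna1, which encodes cyclin A1, was called higher at 0.69 (SE 0.30, unadjusted p = 0.0453, adjusted p = 1.00 by edgeR's quasi-likelihood test), but it was higher by 1.12 in series A and lower by 0.24 in series B (log2 difference -0.24). The study also reported higher cyclin A1 mRNA in Klf9 f/f by qRT-PCR of a separate RiboTag isolation.

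Downstream, the 10 E2F and DP factors had 7 higher, 3 lower and 0 called, with a median of 0.02, and Tfdp1, the DP partner that stood highest at 46.9 CPM per kb, had 0.03 (SE 0.13). The 6 genes of the MuvB core and B-Myb, which form the DREAM repressor complex with p107 or p130 or a later complex with B-Myb, had 6 higher and 0 called, with a median of 0.01. Rbbp4, the most abundant at 52.8 CPM per kb, had 0.00 (SE 0.14). Of 16 S phase genes driven by E2F, 14 had a positive log2 fold change, where 50.2% of all genes did, and 2 a negative. Their median was 0.21, but 0 were called by edgeR's quasi-likelihood test and 1 by DESeq2. Without Klf9 f/f replicate 2, 6 of the 16 were called, where 3.28% of all genes were called higher and 1.83% lower. With the endothelial, mural and meningeal covariate 4 of the 16 were called, where 5.31% of all genes were called higher and 5.21% lower. The median was 0.11 without Klf9 f/f replicate 1. Rrm2, a ribonucleotide reductase subunit and the most abundant at 145 CPM per kb, had 0.05 (SE 0.13). Mcm2, part of the replicative helicase and chosen after its values were seen, had the smallest p of the list, with 0.28 (SE 0.13, unadjusted p = 0.0630, adjusted p = 1.00 by edgeR's quasi-likelihood test). It stood at 154, 169 and 170.1 CPM in Klf9 +/+ against 214, 176 and 209 CPM in Klf9 f/f, so that all Klf9 f/f samples lay above all Klf9 +/+ samples, as for 2.03% of all genes. Of the other S phase genes, only Cdt1 did the same, at 57.5, 54.5 and 49.3 against 61.6, 61.3 and 62.6 CPM. The rest of the list overlapped.

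Upstream, the 10 genes that turn over Cdk inhibitors by ubiquitination had 6 higher and 4 lower with a median of 0.03, and Skp1a, the ubiquitin ligase adaptor and most abundant at 537 CPM per kb, had -0.00 (SE 0.15). The 10 FoxO and TGF-beta genes, inputs known to induce Cdkn1a, Cdkn1b and Cdkn2b, had 4 higher and 6 lower with a median of -0.05, and Smad4, the shared Smad, had -0.08 (SE 0.14). The 10 p53 pathway genes had 3 higher and 7 lower with a median of -0.08, and Sesn1, a p53 target, had 0.16 (SE 0.16). None of these 30 genes was called by edgeR's quasi-likelihood test at the study's threshold. Cdkn1c is imprinted in the Kcnq1 domain, and 6 of the 9 domain genes listed could be tested, with 3 higher and 3 lower and a median of -0.00. Kcnq1, a potassium channel gene, was called lower at -2.13 (SE 0.84), but its levels were 0.63, 0.12 and 0.98 CPM in Klf9 +/+ and 0.18, 0.060 and 0.045 in Klf9 f/f, under 1 CPM in every sample after TMM scaling. It passed the filter, which used CPM before TMM scaling, through Klf9 +/+ replicate 3 alone (1.09 CPM, 30 counts), so the filter favoured a call in this direction. Cd81, the most abundant domain gene at 739 CPM per kb, had 0.11 (SE 0.15).

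**Figure D5:**
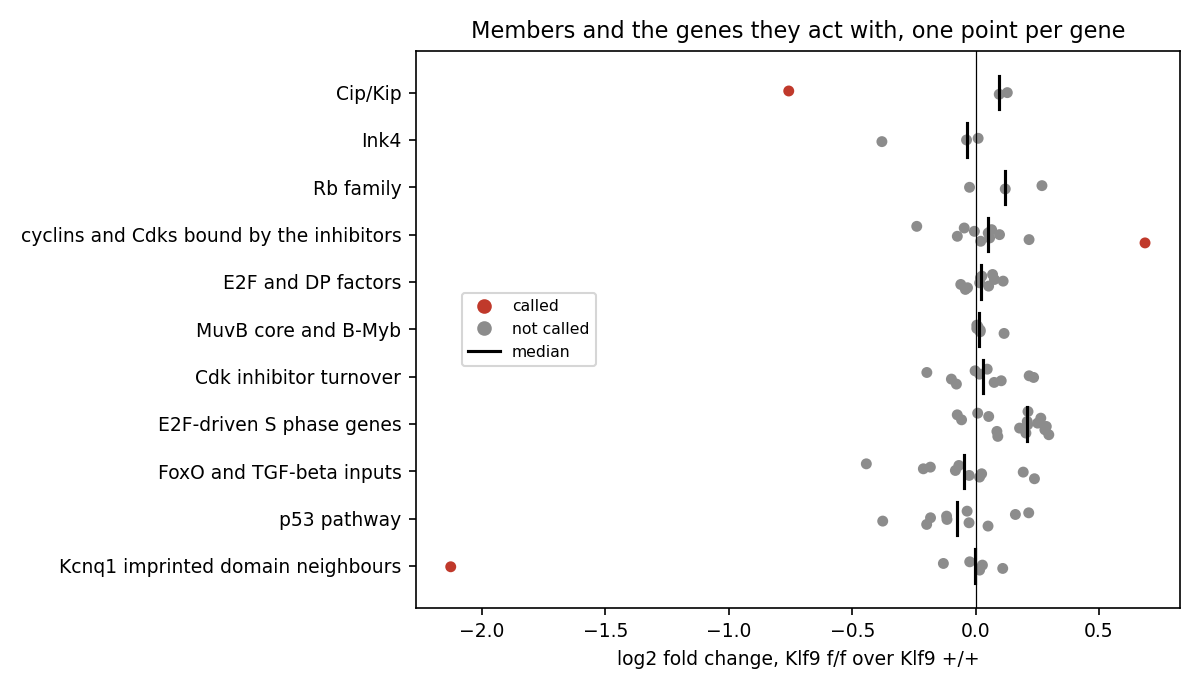
Log2 fold change of Klf9 f/f over Klf9 +/+ for each gene of the 3 families and of 8 lists of genes they act with, 1 point a gene, with called genes in red and a line at each list's median. Called genes are Cdkn1c at -0.76, Ccna1 at 0.69 and Kcnq1 at -2.13, which passed the filter through 1 Klf9 +/+ sample, and the S phase genes have the highest list median at 0.21.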

How the data were processed

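Ribosome-bound mRNA of 3 Klf9 +/+ and 3 Klf9 f/f samples was analysed from the whole-number counts per gene that the authors deposited. By their methods, reads were mapped with STAR to mm9 and counted by HTSeq without strand, and submitters' processing notes name the same tools. HTSeq summary lines were left out. GENCODE M1 named 37205 of 37620 genes and gave exon lengths. The 15056 genes with over 1 CPM, before TMM scaling, in any sample were normalized by TMM and tested with edgeR 4.0.16 (glmQLFit, glmQLFTest, R 4.3.3), library series as a term, 3 residual degrees of freedom. The standard error is the log2 fold change divided by the square root of F. Calls used 1.2-fold and unadjusted p under 0.05. A prior count of 2 was set for log2 CPM. No label says that pools are separate litters, so p-values measure the spread between these samples. The 9 genes, the lists and the rule for named genes (called, or most abundant in a list, and the 5 genes nearest to Cdkn1c, with a mean of at least 5 CPM) were chosen with earlier results of these data known. Alternatives were DESeq2 1.42.0, a likelihood-ratio test, other filters and normalization, no series term, left-out samples, series A alone and marker covariates. The tests were also run on data simulated from the main fit. Promoter sequences are from RefSeq. Figures used matplotlib 3.10.9.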

Additional observations from a re-analysis of the deposited data

How the results depend on the processing

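Cdkn1c and Klf9 kept their negative sign in all 15 alternatives. Called lower were 0 genes of the 9, not 1, without the series term and with the choroid plexus covariate, where the log2 fold change of Cdkn1c was -0.84 and -0.80 and that of Klf9 -0.73 with the covariate (unadjusted p 0.0548, 0.0505 and 0.0578). With that covariate 2 genes were called higher, Cdkn1b at 1.62 (SE 0.52) and Rb1 at 0.92 (SE 0.34). With an adjusted p under 0.05 there was 1 gene, Cdkn1c, by the likelihood-ratio test, by DESeq2 and without the low-count filter. Leaving out each sample in turn gave -0.86 to -0.60 for Cdkn1c, -0.79 to -0.51 for Klf9, 1 to 6 list genes called and a Cdkn1c share difference of -17.9 to -7.41 points. The 6 called list genes, all S phase genes, came without Klf9 f/f replicate 2, and 1 was called without the series term or without Klf9 +/+ replicate 1 or 2. The S phase genes with a positive sign numbered 11 to 16 of 16, an alternative chosen after seeing the data.

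Small differences changed sign. When single samples were dropped, the log2 fold change ran from -0.15 to 0.37 for Cdkn1a (negative without replicate 2 of either genotype), -0.16 to 0.54 for Cdkn1b (negative without Klf9 +/+ replicate 1 or Klf9 f/f replicate 2), -0.17 to 0.094 for Cdkn2c (positive without Klf9 +/+ replicate 2 or Klf9 f/f replicate 1), -0.079 to 0.13 for Cdkn2d, -0.046 to 0.34 for Rb1 (negative without Klf9 +/+ replicate 1) and -0.13 to 0.13 for Rbl1 (positive without Klf9 +/+ replicate 1 or Klf9 f/f replicate 2), while Cdkn2b (-0.60 to -0.16) and Rbl2 (0.086 to 0.41) kept their sign. With the choroid plexus covariate it was -0.81 for Cdkn1a, 0.13 for Cdkn2c and -0.22 for Cdkn2d, beside -1.07 for Cdkn2b and 0.85 for Rbl2, and with the endothelial, mural and meningeal covariate -0.48 for Cdkn1b, -0.15 for Cdkn2d and 0.13 for Rbl1, beside -0.025 for Cdkn2b and 0.39 for Rbl2. Cdkn2d was also negative without the series term (-0.0020), by DESeq2 (-0.00058), by upper-quartile scaling (-0.00087) and in series A (-0.062). The cause of these changes was not tested. Over all genes, 274 were called higher and 376 lower, against 50 and 163 without the series term, 357 and 598 (choroid plexus covariate), 799 and 784 (vascular and meningeal covariate), 513 and 926 without the filter, 163 and 202 in series A, and 130 to 493 and 209 to 719 with samples left out. Adjusted p under 0.05 was reached by 58 genes with the likelihood-ratio test, 39 with DESeq2, 334 without the filter and 0 in the main fit. No paired analysis was possible because the replicate numbers were given in accession order and pair no samples.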
